A study of Homo sapiens with 9 samples.

Results

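The 44 genes described here encode the coats, receptors and fusion proteins that carry cargo between the endoplasmic reticulum (ER) and the Golgi apparatus. They were chosen by symbol from the 20263 genes of the deposited count table. All 44 were found in it and all 44 passed the filter on low counts. They comprise 11 genes of the COPII coat and SAR1, 11 of the COPI coat and ARF, 3 KDEL receptors, 7 cargo receptors and proteins of the ER-Golgi intermediate compartment (ERGIC), 8 TMED genes and 4 SNARE genes. Transcripts were measured by poly(A) mRNA sequencing in 9 libraries of HaCaT, an immortalised line of human epidermal keratinocytes. In 3 libraries the cells were laden with melanosomes (the pigment organelles that keratinocytes receive from melanocytes) and treated with glabridin, an isoflavan of licorice root. In 3 the cells were laden with melanosomes alone, and 3 were control cells, which the labels call WT and Blank. The series asks how glabridin promotes the breakdown of melanosomes. The labels name no donor cell of the melanosomes, no dose, no exposure time and no vehicle, and cells given glabridin without melanosomes were not analysed here.

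Secretory and membrane proteins leave the ER in vesicles coated by COPII, in which the GTPase SAR1 recruits an inner layer of SEC23 and SEC24 and an outer cage of SEC13 and SEC31. COPI, recruited by ARF GTPases, forms vesicles that return escaped ER proteins, receptors and membrane from the Golgi. KDEL receptors, lectins and TMED (p24) proteins link cargo to these coats, SNARE proteins fuse the vesicles with their target, and transcription of many of these genes is known to rise when the secretory load of a cell increases.

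In GENCODE release 29 on GRCh38, 8 of the 44 genes have pseudogenes named after them (SAR1A, SEC13, SEC24A, ARF1, ARF4, MCFD2, TMED10 and BET1), 6 share exon positions with another gene of the table on the same strand and 11 on the other strand. How shared reads and strand were treated in counting is not given in the sources used here, so these counts are less certain. Library totals ran from 39653425 to 46690787 counts. Between-library differences were unequal among the groups. The chi-square per gene between replicates was 30.0 to 99.6 in glabridin libraries, 4.33 to 13.9 in melanosome libraries and 3.14 to 5.28 in control libraries, so no library repeated another, and glabridin replicates 2 and 3 lay at opposite ends of the third principal component (2.56% of the variance). Keratinocyte markers were present, with 19 of 20 listed above 1 TPM on average in every group and summed levels of 12073 to 14714 TPM in glabridin libraries, 16329 to 16960 TPM in melanosome libraries and 15795 to 16115 TPM in control libraries. Of the 19 tested, 6 were higher and 4 lower in glabridin vs melanosome, beside 23.7% and 20.2% of all genes tested. In melanosome vs control 4 of them were higher and 11 lower, beside 29.5% and 33.0%. Melanocyte markers summed to 2622 to 4138 TPM in glabridin libraries, 4304 to 4347 TPM in melanosome libraries and 454 to 472 TPM in control libraries, where TYR, OCA2, SLC24A5, TRPM1, KIT, S100B and ABCB5 were at 0. Most of the control sum came from CAPG (258 to 264 TPM), GPNMB (94.2 to 100.4 TPM) and RAB38 (73.3 to 81.3 TPM). PMEL had 2.42 to 2.90 TPM in control libraries, 1995 to 2029 TPM in melanosome libraries and 941 to 1876 TPM in glabridin libraries. Of the 22 melanocyte markers, 2 were higher and 9 lower with glabridin than with melanosomes alone, and 21 were higher and 1 lower with melanosomes than in control. The part of either set of markers in the results below was not tested, and in bulk RNA fewer cells of a type cannot be told apart from less RNA per cell.

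Among the transport genes, the replicate spread followed base composition. The ratio of glabridin replicate 3 over replicate 2 ran from -0.43 (log2) for LMAN2 to 1.16 for TMED5, and it was above 0 for 29 of the 44 genes. Across the 44 genes its Spearman correlation with the GC content of the annotated transcript was -0.70, against -0.52 over the 13855 tested genes with a transcript. For replicate 3 over replicate 1 the members' correlation was -0.85 in glabridin libraries and 0.87 in melanosome libraries, and it was -0.18 in control libraries. Genes are not independent points, and both values of a ratio share the libraries' depth, so these are descriptions without a test. The 5 largest ratios, those of TMED5, TMED7, SEC24A, LMAN1 and BET1, belonged to transcripts of 36.0% to 39.6% GC. The next largest, that of SEC16A (0.63), went against this order, with a transcript of 56.5% GC.

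**Figure D1:**
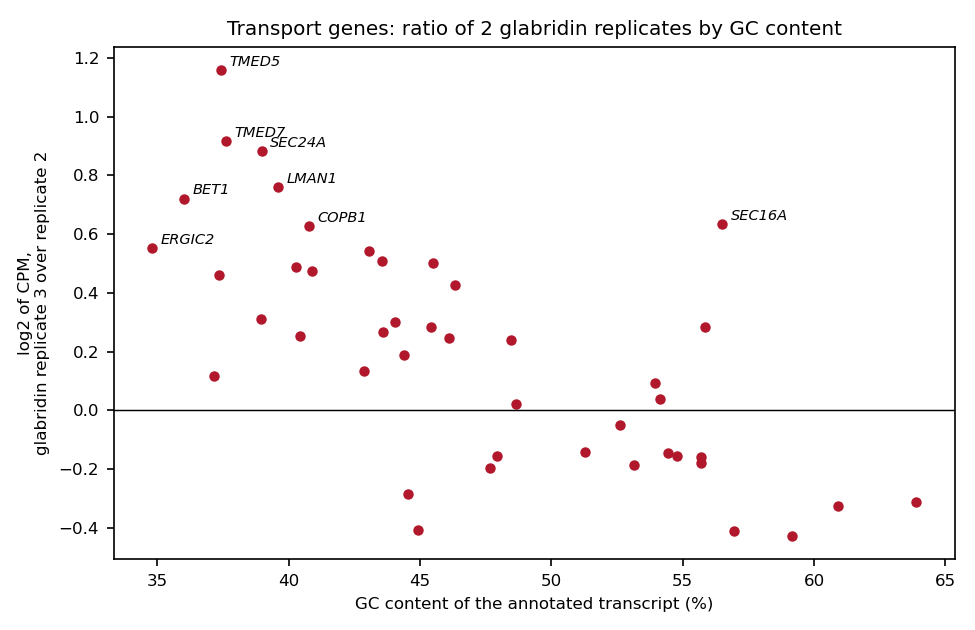
Log2 ratio of TMM-scaled CPM in glabridin replicate 3 over replicate 2 (vertical axis) against the GC content of each gene's annotated transcript in percent (horizontal axis), 1 point for each of the 44 transport genes. TMED5 is highest at 1.16, LMAN2 is lowest at -0.43, and 29 points lie above 0.

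With glabridin, transcripts of most of the transport machinery were higher than in cells that carried melanosomes alone. Of 44 genes, 38 were higher and 0 lower at an adjusted p under 0.05 in edgeR's quasi-likelihood test, while of all 13912 genes tested 23.7% were higher and 20.2% lower. All 3 glabridin libraries lay above all 3 melanosome libraries for 37 genes, but the share of all genes tested that were separated in this way was not counted. The median log2 change was 0.93 over the 44 genes and 0.01 over all genes tested. Called rises of at least 2-fold were seen for 20 of the 44 genes and for 3.24% of all genes tested. Every class took part, with 10 of 11 COPII genes, 10 of 11 COPI genes, 3 of 3 KDEL receptors, 4 of 7 cargo receptor and ERGIC genes, 7 of 8 TMED genes and 4 of 4 SNARE genes higher. The 6 genes not called were SEC24B, COPG2, ERGIC1, ERGIC2, ERGIC3 and TMED1, whose log2 changes ran from -0.19 to 0.21. At an unadjusted p under 0.05 edgeR placed 40 genes higher and 0 lower, and DESeq2 called 38 higher and 0 lower, but ERGIC1 or ERGIC2 was called lower in 4 of the 20 alternative settings. The call was lost in 13 of the 20 settings for TMED7, in 5 for TMED4, in 2 for LMAN2 and in 1 for SEC24C, and the other 34 called genes kept it in all 20. Of all genes called, 54.0% were higher, but with library totals in place of TMM factors 29.05% were, and 36 transport genes were higher and 1 lower.

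**Figure D2:**
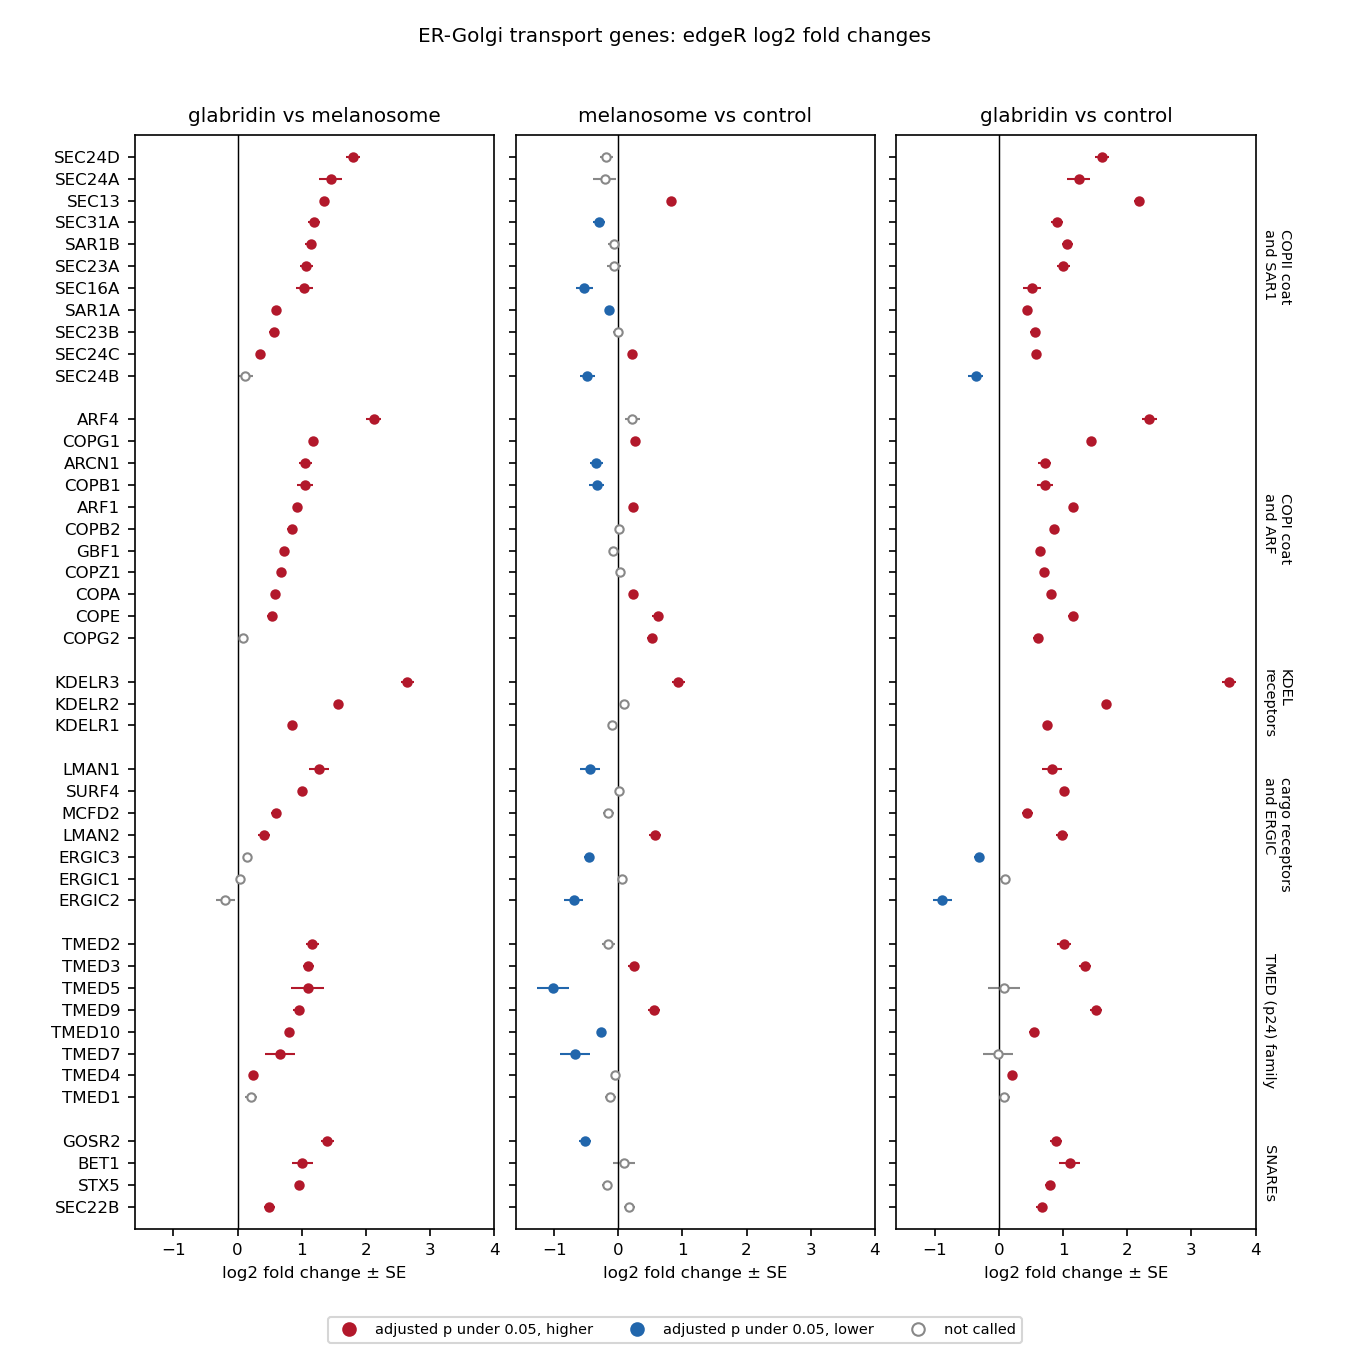
Log2 fold changes from edgeR (horizontal axis) with standard errors for the 44 transport genes, grouped by class and ordered within each class by the first comparison. Filled points are called at an adjusted p under 0.05 (38 higher and 0 lower in glabridin vs melanosome, 11 and 13 in melanosome vs control, 37 and 3 in glabridin vs control) and open points are not called.

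**Figure D3:**
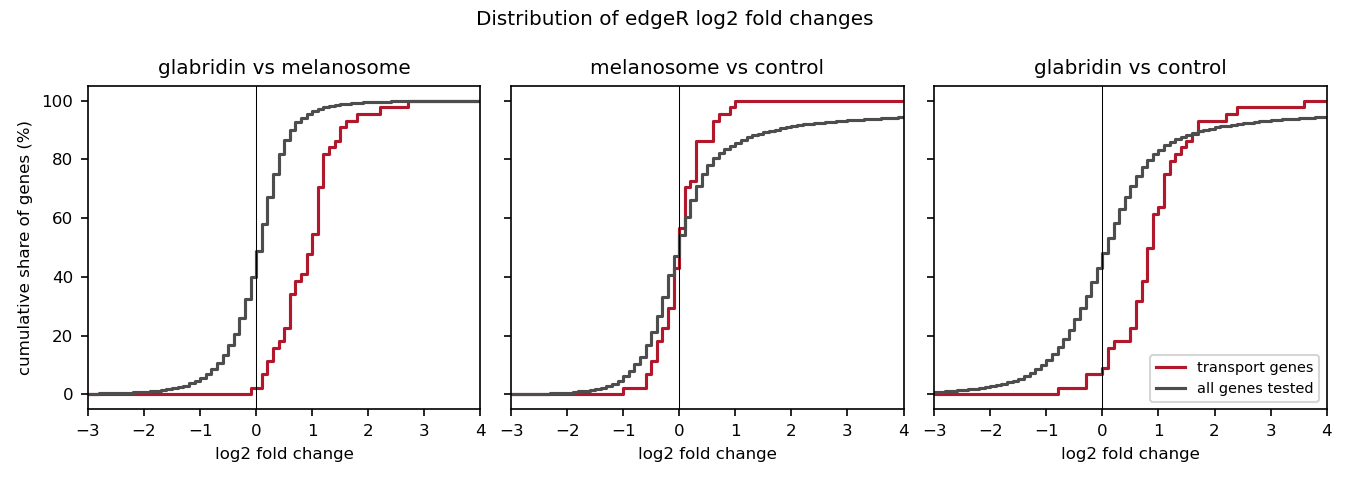
Cumulative share of genes (vertical axis, percent) at or below each log2 fold change (horizontal axis) for the 44 transport genes and for all 13912 genes tested. The transport genes lie to the right of all genes in glabridin vs melanosome (medians 0.93 and 0.01) and the curves cross near 0 in melanosome vs control (medians -0.07 and -0.06).

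The promoters of the 44 genes were searched for 3 elements through which the unfolded protein response, the cell's answer to misfolded proteins in the ER, is known to act. RefSeq promoters of 300 bases (250 before the start and 50 after it, GRCh38.p14) were found for 38 of the 44 genes, 52 promoters in all. The core of the unfolded protein response element, TGACGTGG on either strand, was present in the promoters of 10 of the 38 genes (26.3%). The same letters occurred in 1.13% of the 11156 tested genes with a promoter. The 10 genes were SEC16A, SEC23A, SEC24A, COPA, COPB1, COPB2, ARF1, GBF1, KDELR3 and STX5. All 10 were among the 33 searched genes called higher with glabridin, and the core was in 0 of the 5 searched genes that were not called. Of the 28 searched genes without the core, 23 were called higher. Most searched genes were thus called higher with or without the core. COPB2 held it 2 times. The ER stress response element (CCAAT, 9 bases and CCACG) and its second form (ATTGG, 1 base and CCACG) were in 0 of the 38 genes, and in 0.143% and 0.125% of the tested genes. The shorter run CCACG, which also lies inside the reverse complement of the core, was in 36 of the 38 genes and in 56.4% of tested genes.

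The windows below are those of the genes described in full whose core begins before the RefSeq start, to show where the core lies in promoters of genes that were higher together. RefSeq starts can differ from the ends of the GENCODE spans given elsewhere in the text. Each is printed 5′ to 3′ on the strand of its gene, with the core or its reverse complement in capitals.
SEC23A, chr14:39103206-39103265, minus strand: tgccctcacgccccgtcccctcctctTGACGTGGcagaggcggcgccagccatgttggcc
SEC24A, chr5:134648580-134648639, plus strand: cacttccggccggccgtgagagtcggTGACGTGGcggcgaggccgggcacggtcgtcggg
COPB1, chr11:14499826-14499885, minus strand: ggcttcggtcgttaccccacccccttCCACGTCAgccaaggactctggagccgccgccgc
ARF1, chr1:228082666-228082725, plus strand: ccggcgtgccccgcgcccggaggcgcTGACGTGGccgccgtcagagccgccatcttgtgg
KDELR3, chr22:38468024-38468083, plus strand: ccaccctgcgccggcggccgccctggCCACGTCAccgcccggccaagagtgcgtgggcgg
STX5, chr11:62832034-62832093, minus strand: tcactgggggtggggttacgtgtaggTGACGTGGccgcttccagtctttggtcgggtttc
In KDELR3 the element begins 46 bases before the RefSeq start, in COPB1 48, in ARF1 (1 of 3 RefSeq starts) and STX5 16, in SEC23A 4 and in SEC24A 179. In SEC16A it begins at base 16 counted from 1 of its 3 RefSeq starts. The 10 genes with the core had a median log2 change of 1.00 in glabridin vs melanosome (0.59 to 2.65), and the 28 genes searched without it had a median of 0.74 (-0.19 to 1.40). The 6 genes with no promoter to search, SEC24D, KDELR2, ERGIC1, ARF4, TMED9 and TMED4, had a median of 1.26 (0.03 to 2.12). Whether these 6 hold the core is not known here. A match of letters is a description and shows neither binding nor a cause.

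Levels below are CPM, counts scaled to the library total after TMM correction, in replicates 1, 2 and 3 of each group, and log2 changes are given ± SE. In the COPII coat, glabridin libraries had higher levels of the inner layer, the outer cage and the GTPase. SEC24D, an inner coat subunit that binds cargo (chromosome 4, 118722823 to 118838683, minus strand, GRCh38), had 218, 172 and 244 CPM in glabridin libraries, 61.5, 59.3 and 61.6 CPM in melanosome libraries and 66.4, 72.5 and 68.6 CPM in control libraries. All 3 glabridin libraries were above both other groups, by a log2 change of 1.80 ± 0.11 over melanosome libraries with an edgeR adjusted p of 8.03e-07. SEC24A, its paralog, had 77.8, 51.8 and 95.5 CPM with glabridin, 28.5, 28.3 and 25.4 CPM with melanosomes and 34.8, 29.9 and 30.3 CPM in control. Its glabridin libraries were spread 1.84-fold, yet the lowest was above every other library, and the log2 change over melanosome libraries was 1.45 ± 0.18 (edgeR adjusted p = 0.00011). SEC13, a subunit of the outer cage (chromosome 3, 10293131 to 10321178, minus strand) that also belongs to the nuclear pore, had 219.9, 226 and 203 CPM with glabridin, 78.8, 84.3 and 91.2 CPM with melanosomes and 46.4, 49.7 and 47.2 CPM in control. The 3 groups did not overlap and stood in this order, with a glabridin over melanosome change of 1.35 ± 0.071 (edgeR adjusted p = 3.22e-07). SEC31A, its partner in the cage, had 290.5, 229 and 309 CPM with glabridin, 124, 119 and 119.9 CPM with melanosomes and 147, 152 and 146 CPM in control. Glabridin libraries were again above both other groups, while melanosome libraries were below control libraries, and the log2 change over melanosome libraries was 1.19 ± 0.094 (edgeR adjusted p = 4.94e-06).

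SAR1B, 1 of the pair of GTPases that start coat assembly, had 60.1, 53.5 and 66.5 CPM with glabridin, 28.4, 27.3 and 26.1 CPM with melanosomes and 27.9, 29.9 and 28.3 CPM in control. It was 2.20-fold higher with glabridin than with melanosomes alone (log2 1.14 ± 0.087, edgeR adjusted p = 3.95e-06). SAR1B and SEC24A start from opposite strands of chromosome 5 with annotated spans that overlap (134601144 to 134649271 and 134648789 to 134727823). SEC23A, the inner coat subunit that activates the GTPase, had 136, 118 and 163 CPM with glabridin, 71.4, 64.7 and 62.4 CPM with melanosomes and 71.2, 67.8 and 69.4 CPM in control. Its log2 change over melanosome libraries was 1.07 ± 0.10 (edgeR adjusted p = 2.11e-05), with no overlap between glabridin and melanosome libraries, while melanosome and control libraries overlapped. SEC16A, the scaffold of ER exit sites, had 373, 243 and 377 CPM with glabridin, 159, 159.9 and 164 CPM with melanosomes and 228, 239 and 229 CPM in control. Replicate 2 of glabridin was the lowest of its group by a wide margin and stood only just above the control libraries, and the log2 change over melanosome libraries was 1.04 ± 0.14 (edgeR adjusted p = 0.000154). The other COPII genes called higher were SAR1A, SEC23B and SEC24C, with log2 changes of 0.59, 0.56 and 0.35. SEC24B, the remaining inner coat subunit, had 49.0, 44.1 and 64.4 CPM with glabridin and 50.4, 47.4 and 47.1 CPM with melanosomes, which overlapped (log2 0.12 ± 0.12).

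In the COPI group the largest change was in ARF4 rather than in a coat subunit. ARF4, an ARF GTPase of the early secretory pathway (chromosome 3, 57571363 to 57598220, minus strand), had 839, 706 and 981 CPM with glabridin, 213, 196 and 171 CPM with melanosomes and 169, 157 and 172 CPM in control. It was 4.35-fold higher with glabridin than with melanosomes alone (log2 2.12 ± 0.12, edgeR adjusted p = 4.45e-07), and melanosome and control libraries overlapped. ARF1, the GTPase that recruits COPI, had 1025, 1044 and 935 CPM with glabridin, 516, 517 and 557 CPM with melanosomes and 445, 465 and 447 CPM in control. Its libraries fell into 3 separate levels, with a log2 change of 0.92 ± 0.06 over melanosome libraries (edgeR adjusted p = 1.3e-06). Both ARF genes have pseudogenes named after them in the annotation (4 for ARF4, 3 for ARF1). COPG1, the γ subunit (chromosome 3, 129249606 to 129277773, plus strand), had 733, 702 and 679 CPM with glabridin, 303, 317 and 316 CPM with melanosomes and 258, 256 and 266 CPM in control. The 3 glabridin libraries were close together and far above the others, with a log2 change of 1.18 ± 0.052 (edgeR adjusted p = 1.06e-07).

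ARCN1, the δ subunit, had 318, 246 and 349.6 CPM with glabridin, 147, 142 and 150.0 CPM with melanosomes and 189.7, 186 and 181 CPM in control (glabridin over melanosome log2 1.06 ± 0.11, edgeR adjusted p = 2.45e-05). COPB1, the β subunit, had 309, 244 and 376 CPM with glabridin, 154, 147 and 148 CPM with melanosomes and 189, 189 and 189 CPM in control (log2 1.05 ± 0.12, edgeR adjusted p = 7.28e-05). In both subunits glabridin libraries were highest, control libraries came next and melanosome libraries were lowest, with no overlap. COPE, the ε subunit, had 196, 211 and 170.1 CPM with glabridin, 122, 138 and 137 CPM with melanosomes and 87.5, 82.6 and 89.2 CPM in control. For COPE the order was glabridin, melanosome and control, and the rise over melanosome libraries was 0.54 ± 0.084 (log2, edgeR adjusted p = 0.000512). COPB1, COPE and COPG2 are among the genes that share exon positions on their own strand. Called higher as well were COPA, COPB2 and COPZ1, which encode the α, β′ and ζ subunits, and GBF1, which loads ARF with GTP, with log2 changes of 0.59, 0.85, 0.67 and 0.72. COPG2, the second γ subunit, had 58.1, 65.6 and 53.8 CPM with glabridin and 55.6, 54.6 and 57.6 CPM with melanosomes, which overlapped (log2 0.08 ± 0.078).

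All 3 KDEL receptors, which bind the tail signal of escaped ER proteins in the Golgi and return them, were higher with glabridin. KDELR3 (chromosome 22, 38468062 to 38483447, plus strand), whose promoter window is printed above, had 82.7, 68.3 and 83.1 CPM in glabridin libraries, 12.8, 11.7 and 12.8 CPM in melanosome libraries and 6.09, 7.05 and 6.33 CPM in control libraries. The groups were far apart relative to their spread, and the 6.27-fold rise over melanosome libraries was the largest of the 44 genes (log2 2.65 ± 0.10, edgeR adjusted p = 4.63e-08). KDELR2 (chromosome 7, 6445953 to 6484242, minus strand) had 579, 519.6 and 592 CPM with glabridin, 196, 188 and 184 CPM with melanosomes and 177, 176 and 181 CPM in control. It was 2.98-fold higher with glabridin than with melanosomes (log2 1.57 ± 0.061, edgeR adjusted p = 4.63e-08), and it shares exon positions with DAGLB on the same strand. KDELR1 had 549, 563 and 509 CPM with glabridin, 290.1, 309 and 303 CPM with melanosomes and 326, 317 and 321 CPM in control (glabridin over melanosome log2 0.84 ± 0.055, edgeR adjusted p = 1.34e-06). Per transcript length the order of levels with glabridin was KDELR1 (716 ± 11.0 TPM), KDELR2 (476 ± 56.9 TPM) and KDELR3 (107 ± 16.6 TPM), so the receptor with the steepest rise was still the least abundant (mean ± SD, n = 3).

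Among the cargo receptors, SURF4, LMAN1, LMAN2 and MCFD2 were higher with glabridin and the 3 ERGIC genes were not called. SURF4, a receptor for soluble secretory proteins (chromosome 9, 133361449 to 133376166, minus strand), had 986, 895 and 919 CPM with glabridin, 446, 469 and 476 CPM with melanosomes and 459.7, 453 and 468 CPM in control. It was 2.01-fold higher with glabridin than with melanosomes (log2 1.01 ± 0.055, edgeR adjusted p = 3.99e-07), and melanosome and control libraries overlapped. LMAN1, a mannose-binding lectin that carries coagulation factors, had 319.7, 273 and 462 CPM with glabridin, 163, 141 and 133 CPM with melanosomes and 196, 194 and 206 CPM in control. Replicate 3 of glabridin was well above the other two, and the groups did not overlap (glabridin over melanosome log2 1.27 ± 0.16, edgeR adjusted p = 0.000129). Its partner MCFD2 and the lectin LMAN2 changed by 0.60 ± 0.084 and 0.41 ± 0.091 (edgeR adjusted p = 0.000254 and 0.00438). ERGIC1, ERGIC2 and ERGIC3, membrane proteins that cycle between ER, intermediate compartment and Golgi, had glabridin over melanosome changes of 0.03 ± 0.063, -0.19 ± 0.15 and 0.15 ± 0.064, and in each the libraries of the 2 groups overlapped.

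In the TMED family, whose members form complexes that sort cargo into both coats, 7 of 8 genes were called higher with glabridin than with melanosomes. TMED2 had 374, 309 and 433 CPM with glabridin, 174, 162 and 161 CPM with melanosomes and 186, 187 and 179 CPM in control (glabridin over melanosome log2 1.17 ± 0.10, edgeR adjusted p = 1.02e-05). TMED3 had 308, 346 and 261 CPM with glabridin, 139, 143 and 145 CPM with melanosomes and 122, 121 and 118 CPM in control (log2 1.10 ± 0.088, edgeR adjusted p = 5.34e-06). In both genes every glabridin library lay above every other library. TMED9 had 383, 434 and 326 CPM with glabridin, 187, 201 and 204 CPM with melanosomes and 132, 131 and 139 CPM in control (log2 0.95 ± 0.091, edgeR adjusted p = 1.89e-05). TMED10 had 384, 358 and 427 CPM with glabridin, 232, 223 and 215 CPM with melanosomes and 265, 263 and 276 CPM in control (log2 0.81 ± 0.068, edgeR adjusted p = 7.96e-06). For TMED9 melanosome libraries stood above control libraries, and for TMED10 below them. TMED5 had 58.9, 43.2 and 96.5 CPM with glabridin, 38.3, 30.5 and 24.4 CPM with melanosomes and 63.4, 57.6 and 67.5 CPM in control. Its glabridin libraries were spread over a 2.23-fold range that took in all control libraries, and the change over melanosome libraries was 1.09 ± 0.25 (edgeR adjusted p = 0.00541). TMED7, which shares exons with the read-through gene TMED7-TICAM2, had overlapping glabridin and melanosome libraries despite its call (0.66 ± 0.24, edgeR adjusted p = 0.0436), which was lost in most of the alternative settings. TMED4 changed by 0.24 ± 0.058 and TMED1 by 0.21 ± 0.091, the second without a call.

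All 4 SNARE genes, whose products are known to fuse ER-derived vesicles at the Golgi, were higher with glabridin. GOSR2 (chromosome 17, 46923075 to 46975524, plus strand) had 37.4, 30.1 and 35.5 CPM with glabridin, 12.6, 12.9 and 13.5 CPM with melanosomes and 18.6, 18.3 and 18.9 CPM in control. The control libraries lay between the other groups, and the rise over melanosome libraries was 2.64-fold (log2 1.40 ± 0.095, edgeR adjusted p = 1.69e-06). STX5 had 172, 141 and 171 CPM with glabridin, 80.5, 83.5 and 83.7 CPM with melanosomes and 93.1, 93.2 and 92.7 CPM in control (log2 0.96 ± 0.077, edgeR adjusted p = 5.27e-06). BET1 had 32.9, 26.2 and 43.2 CPM with glabridin, 19.9, 16.1 and 14.9 CPM with melanosomes and 15.7, 15.7 and 16.4 CPM in control (log2 1.01 ± 0.17, edgeR adjusted p = 0.000761). Neither gene had a glabridin library within the range of the other groups. SEC22B changed by 0.49 ± 0.084 (edgeR adjusted p = 0.000872).

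**Figure D4:**
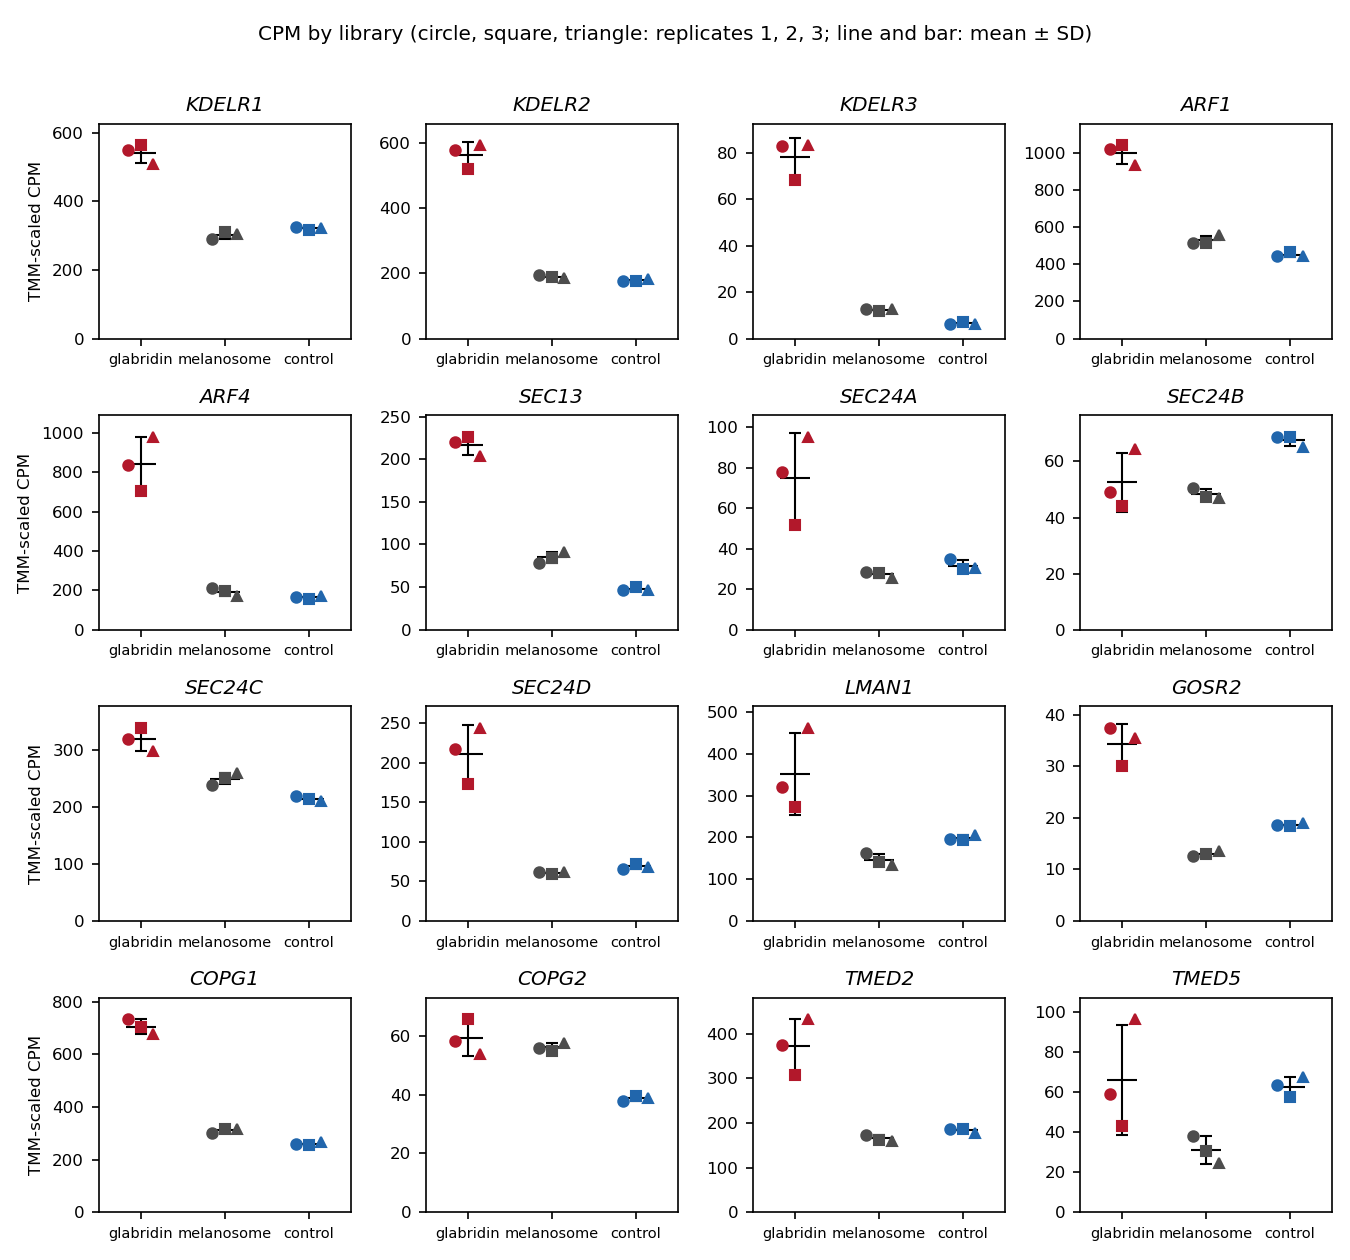
TMM-scaled CPM (vertical axis, starting at 0) in each library of the glabridin, melanosome and control groups for 16 transport genes, with circles, squares and triangles for replicates 1, 2 and 3 and lines for the mean ± SD. KDELR3 is at 68.3 to 83.1 CPM with glabridin, 11.7 to 12.8 CPM with melanosomes and 6.09 to 7.05 CPM in control, while SEC24B, COPG2 and TMED5 show glabridin libraries that overlap another group.

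In cells with melanosomes alone, transport genes differed from control in both directions and mostly by small amounts. Melanocyte markers also differed between these groups, and their part in these differences was not tested. In melanosome vs control, 11 of 44 genes were higher and 13 lower, shares no larger than those of all genes tested (29.5% higher, 33.0% lower), and 20 were not called. The median log2 change was -0.07 over the 44 genes and -0.06 over all genes tested. The genes called higher were SEC13, SEC24C, COPA, COPE, COPG1, COPG2, ARF1, KDELR3, LMAN2, TMED3 and TMED9. KDELR3 changed by 0.94 ± 0.10 and SEC13 by 0.83 ± 0.071 (log2, edgeR adjusted p = 2.31e-05 and 3.47e-06), and COPE, LMAN2, TMED9 and COPG2 by 0.62, 0.57, 0.56 and 0.53. These 6 kept their call in all 20 alternative settings. The genes called lower were SAR1A, SEC16A, SEC24B, SEC31A, COPB1, ARCN1, LMAN1, ERGIC2, ERGIC3, TMED5, TMED7, TMED10 and GOSR2. TMED5 changed by -1.02 ± 0.25, the only change of at least 2-fold among the 44 (edgeR adjusted p = 0.00526), followed by ERGIC2 with -0.69 ± 0.15 and TMED7 with -0.67 ± 0.24 (edgeR adjusted p = 0.00211 and 0.029). Only TMED5 and ERGIC3 (-0.46 ± 0.064) of the genes called lower kept the call in all 20 settings, and SAR1A and TMED10 turned their sign in at least 1 of 6 other scalings. Across the 44 genes the change had a Spearman correlation of 0.36 with the GC content and of -0.41 with the length of the annotated transcript, against 0.30 and -0.18 across all genes. Under offsets for GC content and length, 18 genes were higher and 10 lower. That count, like the member counts of the other alternative settings, has no share of all genes tested beside it. It shows only how the number of called members moved. The count of lower genes also depended on single libraries, with 8 without glabridin replicate 1 (which enters through the shared spread and scaling), 7 without melanosome replicate 2 and 8 without melanosome replicate 3. With library totals in place of TMM factors, 18 transport genes were higher and 4 lower, and 66.0% of all called genes were higher, against 47.2% with TMM factors.

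Set against control cells, melanosome-laden cells with glabridin had 37 of 44 transport genes higher and 3 lower, where 37.6% and 32.7% of all genes tested were called. The comparison shares its libraries with the other two, so it adds no independent support. KDELR3 was 12.0-fold higher (log2 3.59 ± 0.11), ARF4 5.07-fold (2.34 ± 0.12) and SEC13 4.53-fold (2.18 ± 0.073), with edgeR adjusted p-values of 1.35e-09, 4.22e-08 and 2.46e-09. All 11 COPI genes, COPG2 included, and 10 of 11 COPII genes were higher. The genes lower than in control were SEC24B (-0.36 ± 0.12), ERGIC2 (-0.89 ± 0.15) and ERGIC3 (-0.32 ± 0.064), with edgeR adjusted p-values of 0.0171, 0.000314 and 0.00109. These 3 also had melanosome over control changes of -0.49, -0.69 and -0.46. ERGIC2 had 10.5, 10.6 and 15.5 CPM with glabridin, 15.6, 12.7 and 13.5 CPM with melanosomes and 22.7, 22.7 and 22.2 CPM in control, and ERGIC3 had 358, 357 and 315 CPM with glabridin, 296, 325 and 310.5 CPM with melanosomes and 437, 417 and 431 CPM in control. For both, control libraries stood alone above the other 2 groups. TMED5, TMED7, ERGIC1 and TMED1 were not called, with log2 changes of 0.08 ± 0.25, -0.01 ± 0.23, 0.09 ± 0.063 and 0.08 ± 0.091.

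Unequal rises shifted the make-up of paralog sets. In TPM, which corrects for transcript length, SEC24D held 29.2% ± 3.44 of the summed SEC24 paralogs with glabridin, 13.7% ± 0.41 with melanosomes and 16.0% ± 0.774 in control (mean ± SD, n = 3). SEC24C, the most abundant paralog, held 54.2% ± 6.54 with glabridin, 68.9% ± 1.40 with melanosomes and 60.4% ± 0.402 in control. SEC24B held 8.18% ± 1.23 with glabridin, 12.3% ± 0.715 with melanosomes and 17.6% ± 0.236 in control. ARF1 made up 56.3% ± 5.41 of ARF1 and ARF4 together with glabridin, 74.7% ± 2.81 with melanosomes and 74.6% ± 1.37 in control. The level of ARF4 with glabridin was 929 ± 202 TPM, beside 1181 ± 25.5 TPM for ARF1. KDELR1 held 55.2% ± 3.03 of the KDEL receptors with glabridin, 69.3% ± 1.30 with melanosomes and 72.9% ± 0.385 in control. KDELR3 held 8.21% ± 0.8 with glabridin, 2.95% ± 0.189 with melanosomes and 1.52% ± 0.132 in control, so the receptor with the smallest share gained and the most abundant one lost share. COPG1 held 93.5% ± 0.583 of the 2 γ subunits with glabridin, 87.1% ± 0.393 with melanosomes and 89.1% ± 0.31 in control. Of the 2 SEC23 genes, SEC23A held 42.0% ± 2.56 with glabridin, 33.8% ± 2.29 with melanosomes and 34.8% ± 1.22 in control. Of the 2 SAR1 genes, SAR1A held 76.1% ± 1.11 with glabridin, 82.3% ± 0.153 with melanosomes and 83.0% ± 0.645 in control. Glabridin and melanosome libraries did not overlap for any of the 11 shares, and melanosome and control libraries did not overlap for 8. Glabridin and control libraries overlapped for SEC24A and SEC24C. An exact two-sided permutation test of 3 against 3 libraries gives no p under 0.1, which the shares without overlap reached (adjusted p = 0.118 over 33 tests). The shifts are therefore descriptions. Paralogs also differ in GC content (55.7% for ARF1 and 40.9% for ARF4), which the replicate spread followed, and its part in the shifts was not tested.

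**Figure D5:**
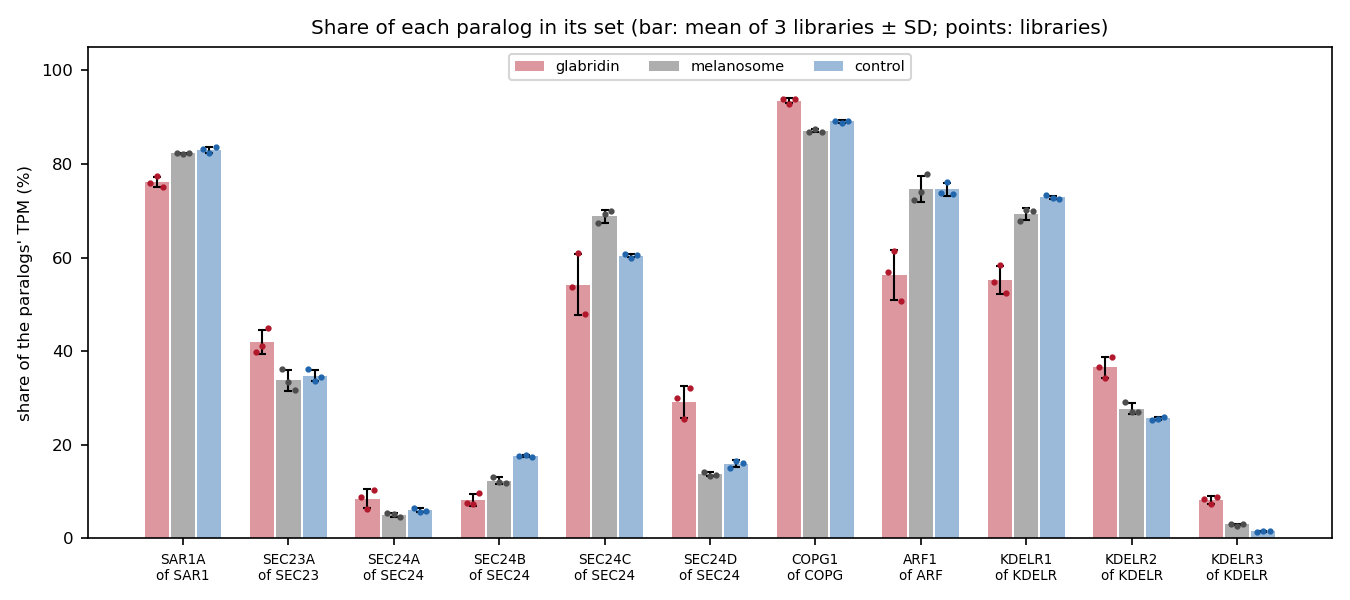
Share of each paralog in the summed TPM of its set (vertical axis, percent) in glabridin, melanosome and control libraries, with bars for the mean of 3 libraries, lines for the SD and points for libraries. SEC24D is at 29.2% with glabridin, 13.7% with melanosomes and 16.0% in control, and KDELR1 is at 55.2% with glabridin, 69.3% with melanosomes and 72.9% in control.

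Summed over each class, transcript levels with glabridin were highest in all 6 classes. COPI genes summed to 4551, 4053 and 4797 TPM with glabridin, 2516, 2439 and 2459 TPM with melanosomes and 1913, 1932 and 1944 TPM in control. COPII genes summed to 1017, 870.1 and 1091 TPM with glabridin, 597, 575 and 588 TPM with melanosomes and 497, 515 and 502 TPM in control. The ratio of glabridin over melanosome means was 1.98 for KDEL receptors, 1.81 for COPI, 1.69 for COPII, 1.68 for SNAREs, 1.60 for TMED genes and 1.32 for cargo receptor and ERGIC genes, and no class had overlapping groups (exact two-sided permutation p = 0.1, the smallest possible). The melanosome over control ratios of these TPM sums were 1.04 to 1.28. On TMM-scaled CPM, which differs from TPM both in scaling and in having no correction for length, the sums of 5 of the 6 classes lay below control, by log2 changes of -0.01 to -0.11, and only COPI stayed above.

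Of 70 further genes of ER-Golgi transport and its regulation, 8 of them the regulators described in the next paragraph, 68 could be tested. Of the 68, 42 were higher and 3 lower with glabridin than with melanosomes, beside 23.7% higher and 20.2% lower of all genes tested. Tethers, RAB and fusion genes counted 22 higher and 2 lower of 36, other COPII genes 8 and 1 of 14, and other COPI and ARF genes 7 and 0 of 12. BET1L, a Golgi SNARE, had 293, 251 and 289.7 CPM with glabridin, 95.2, 102 and 99.8 CPM with melanosomes and 111, 110.4 and 107 CPM in control (glabridin over melanosome log2 1.49 ± 0.069, edgeR adjusted p = 1.44e-07). YIF1A, a membrane protein of the intermediate compartment, had 319.8, 264 and 283 CPM with glabridin, 104, 116 and 115 CPM with melanosomes and 82.6, 88.1 and 89.3 CPM in control (log2 1.37 ± 0.079, edgeR adjusted p = 5.6e-07). In both genes every glabridin library was above every other library. GOLGA2, a cis-Golgi tether, changed by 0.94 ± 0.059 (edgeR adjusted p = 9.72e-07). The 3 lower genes were SEC31B, the second SEC31 paralog, at 0.404, 0.754 and 0.657 CPM with glabridin, 1.26, 1.29 and 1.69 CPM with melanosomes and 4.10, 4.66 and 4.10 CPM in control (log2 -1.23 ± 0.24, edgeR adjusted p = 0.00183), the tether subunit TRAPPC12 (-0.27 ± 0.08, 0.0199) and the ER SNARE STX18 (-0.31 ± 0.097, 0.0264). SEC31B was thus lower where its abundant paralog SEC31A was higher. In melanosome vs control 12 of the 68 genes were higher and 21 lower (17.6% and 30.9%), shares below those of all genes tested (29.5% and 33.0%). In glabridin vs control 34 were higher and 7 lower, beside 37.6% and 32.7% of all genes tested.

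Of 8 listed transcription factors and proteases known to regulate these genes, which are counted among the 70 above, 6 passed the filter. Of these, 5 were higher with glabridin than with melanosomes, beside 23.7% of all genes tested, and 1 was not called (log2 -0.09). XBP1, the factor of the unfolded protein response whose spliced form activates secretory genes, had 366, 256 and 364 CPM with glabridin, 92.7, 94.1 and 92.0 CPM with melanosomes and 94.7, 98.7 and 100.1 CPM in control. It was 3.54-fold higher with glabridin than with melanosomes (log2 1.82 ± 0.12, edgeR adjusted p = 1.19e-06), with melanosome and control levels close together. CREB3L2, a membrane-bound factor known to activate SEC23A in mice, changed by 0.94 ± 0.07, CREB3 by 0.74 ± 0.069 and ATF6 by 0.37 ± 0.075 (edgeR adjusted p = 3.03e-06, 1.47e-05 and 0.0023). Gene counts do not tell the spliced from the unspliced XBP1 transcript.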

How the data were processed

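Poly(A) mRNA of HaCaT cells was sequenced as strand-specific paired-end libraries, per the labels' protocols, with 3 libraries each for glabridin, melanosome and control. The deposited table holds unnormalized counts of each gene beside TPM, per the file headers, and a second deposited table repeats the TPM. Deposited FPKM values were not used. The build was hg38 (credited to the submitters' processing notes). Aligner, counter, annotation and the use of strand are not given. Among counts under 50, 69.9% to 72.2% were even, against 48.7% to 51.1% of counts over 500, so a count may not be a single fragment.

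Members and lists were chosen with earlier results of these data known, so counts over them are descriptions and no list test was made. The count test was the quasi-likelihood test of edgeR 4.0.16 (R 4.3.3), with TMM factors and filterByExpr, in 1 fit of all 9 libraries. Adjustment was by Benjamini-Hochberg over 13912 genes, with calls at an adjusted p under 0.05. Standard errors were derived from the F statistic. TPM served for levels between genes, with exact permutation tests. Whether replicates came from separate cultures is not in the labels; the p-values rest on the spread among these libraries, and that spread may be technical. The script was tested on simulated counts. Full values are given for the 2 members of each class with the smallest p in glabridin vs melanosome and for members called with a change of at least 2-fold in any comparison, 25 in all, and for the 3 other pathway genes with the smallest p in each direction; values of other genes, XBP1 included, were chosen after they were seen. Alternatives were other scalings (RLE, upper quartile, library totals), DESeq2 1.42.0, limma 3.58.1 on log2(TPM + 1), other filters, only the 2 groups compared, a replicate block, a test against a fold of 1.2, each library left out, and, added after seeing the data, offsets for GC content and length (loess, span 0.3).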

Additional observations from a re-analysis of the deposited data

How the results depend on the processing

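In glabridin vs melanosome, 34 to 39 of the 44 transport genes were higher in the 20 alternative settings, and 1 was lower with library totals alone, with limma on TPM, without glabridin replicate 3 and with GC and length offsets. Leaving out each library gave 35 to 39 higher and 0 to 1 lower, and 33 to 51 of the other pathway genes called. In melanosome vs control, 18 genes were higher with library totals, limma, only the 2 groups compared or GC and length offsets, and 6 in the test against a fold of 1.2; 4 were lower with library totals, 3 with limma and 6 in the test against a fold of 1.2, which left 13 other pathway genes called. Leaving out each library gave 10 to 13 higher, 7 to 16 lower and 24 to 45 other pathway genes. In glabridin vs control, 1 gene was lower in the test against a fold of 1.2, and leaving out each library gave 36 to 38 higher, 2 to 3 lower and 40 to 52 other pathway genes. Member counts in the alternative settings are given without the shares of all genes tested in the same settings. With GC and length offsets, melanosome vs control changes turned sign for 9 genes. Of these, SAR1B (0.41), SEC23A (0.36) and SEC24A (0.26) were then called higher, TMED10 (0.0241) and SAR1A (0.13) were no longer called, and SEC23B, TMED2, SURF4 and COPZ1 were called in neither fit. SAR1A also turned sign with library totals (0.0184) and with limma (0.0298). On TMM-scaled CPM, summed levels in melanosome vs control turned sign for COPII (-0.10), KDEL receptors (-0.0093), cargo receptors (-0.11), TMED genes (-0.0661) and SNAREs (-0.0782, all log2). The cause of these changes was not tested. The paralog shares without overlap stayed at 11 in glabridin vs melanosome, and at 8 to 9 and 9 to 11 in the other comparisons.

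Against the TMM fit, the median gene in glabridin vs melanosome moved by -0.18 (log2) with library totals, -0.18 with limma on TPM and -0.11 with upper-quartile factors, and in melanosome vs control by 0.17 with library totals and 0.18 with limma on TPM. Over all genes, the test against a fold of 1.2 called 3414 in glabridin vs melanosome, against 6111. Of all calls in glabridin vs melanosome, 54.0% were higher, against 38.0% with upper-quartile factors and 27.6% with limma on TPM; in melanosome vs control 47.2% were, against 68.5% with limma on TPM. Correlations of deviations between libraries of the same replicate number ran from -0.23 to 0.05. With 3 libraries in each group they cannot settle whether replicate numbers pair the libraries. A replicate block gave 38 higher and 0 lower, 11 higher and 12 lower, and 37 higher and 3 lower in the 3 comparisons. It called 42, 26 and 41 other pathway genes. Since a count may not be a single fragment, how much of the replicate spread is counting error was not tested.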
